A study of Mus musculus with 4 samples.

Results

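Cholesterol and fatty acid synthesis in ovarian immune cells was followed through 29 genes of the mevalonate, sterol and fatty acid pathways, of 32285 genes in the count matrix. The members were chosen by name, as enzymes, regulators and transporters of these pathways, with earlier results of these data known. All 29 were found in the matrix. They comprise 8 genes of the mevalonate and isoprenoid steps, 11 of the sterol steps from squalene on, 5 regulators and sterol transporters, and 5 genes of fatty acid and lipid synthesis. Counts came from sorted CD45+ cells, that is leukocytes, of the ovaries of C57BL/6J females, which were 10 to 12 weeks old. Mice were given gonadotropin, a class of hormones that drives follicle growth and ovulation, or saline, and ovaries were taken 48 h later. The saline mice carry the label untreated. Each group held 5 mice, told apart by antibody hashtags and pooled into 1 gene expression library, so treatment and library cannot be told apart. The labels give neither the gonadotropin nor its dose.

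Of 6468 barcodes, 4918 carried the hashtag of 1 mouse and passed the limits on genes and mitochondrial counts (2423 gonadotropin, 2495 untreated). Marker genes, none of them a member, gave 1618 follicular B cells, 619 B-1-type B cells, 1263 T cells, 523 NK cells and 517 myeloid cells. Counts of unique transcript molecules (UMIs) were summed per mouse and type, and levels are given as CPM, the gene's UMIs per 1000000 UMIs of that mouse and type. Follicular B sums held 433886 to 1727339 UMIs per mouse. The median cell held 5771.5 UMIs in the gonadotropin group and 5885 in the untreated group. A sum over cells does not separate fewer expressing cells from less RNA per cell. The follicular B gate was nearly free of T and NK markers (8 T markers summed to 5.25 CPM, 9 NK markers to 4.46 CPM), while 14 myeloid markers summed to 237 CPM. The libraries shared 4 barcode sequences, 2 of them among the kept cells.

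Cholesterol is built from acetyl-CoA through mevalonate, isoprenoid units and squalene, and the sterol ring is then trimmed in a chain of demethylation, reduction and isomerisation steps. The transcription factor SREBP-2, product of Srebf2, turns these enzyme genes on when membrane sterol is low, and SREBP-1 from Srebf1 acts mainly on fatty acid genes. Scap carries both factors out of the endoplasmic reticulum and Insig1 holds Scap back. Lymphocytes raise both pathways when they grow and divide.

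SREBP factors act on promoters together with the CCAAT-binding factor NF-Y, so the members' promoters were searched for the sterol regulatory element core TCACNCCAC, the CCAAT box CCAAT and the E-box CACGTG, on both strands. RefSeq promoter windows of GRCm38.p6, from 250 bases before to 50 after an annotated start, matched 24 of the 29 members. Fdft1, Fdps, Sqle, Scd2 and Stard4 had no window. Some members had more than 1 window, and a motif in any of them counted for the gene. A CCAAT box lay in 20 of these 24 (83.3%, against 41.1% of 27025 genes with a window). Counted by window it lay in 21 of 30 (70.0%, against 37.4% of 32851). The E-box lay in 5 (20.8%, against 8.09% of genes). The sterol regulatory element core lay in 1, Hmgcs1 (4.17%, against 1.44%). A match describes the letters in the window and not a bound site. The stretches below come from 6 members with a window whose values in follicular B or myeloid cells are described further on, 5′ to 3′ on the gene's own strand, with the motif letters in capitals (ATTGG is CCAAT on the other strand). The Hmgcs1 stretch (chr13:119690101-119690380, plus strand) holds 4 CCAAT boxes and the element core, 137 bases before the start. The Cyp51 stretch (chr5:4104707-4104741, minus strand), the Srebf2 stretch (chr15:82147119-82147153, plus strand) and the Pmvk stretch (chr3:89454390-89454424, plus strand) hold 1 CCAAT box each. The Idi1 stretch (chr13:8885546-8885611, plus strand) holds 2 and the Fasn stretch (chr11:120824587-120824652, minus strand) holds 3. The Fasn window lies within the annotated gene, whose 5′ end is at 120825166. The other Pmvk window holds no CCAAT box.
Hmgcs1: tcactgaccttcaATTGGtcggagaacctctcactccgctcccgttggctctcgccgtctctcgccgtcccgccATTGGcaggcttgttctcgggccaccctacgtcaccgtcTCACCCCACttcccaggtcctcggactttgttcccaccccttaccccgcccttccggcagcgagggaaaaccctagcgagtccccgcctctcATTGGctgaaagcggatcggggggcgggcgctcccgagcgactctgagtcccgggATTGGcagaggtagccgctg
Cyp51: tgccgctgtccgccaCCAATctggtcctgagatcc
Idi1: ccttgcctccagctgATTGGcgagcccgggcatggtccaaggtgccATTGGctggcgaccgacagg
Pmvk: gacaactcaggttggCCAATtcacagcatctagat
Srebf2: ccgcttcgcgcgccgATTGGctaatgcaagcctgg
Fasn: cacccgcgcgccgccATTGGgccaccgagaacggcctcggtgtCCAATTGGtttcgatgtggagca

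In follicular B cells, 16 of the 29 members had enough counts to be tested between gonadotropin and untreated mice. Cyp51, the lanosterol demethylase of the sterol pathway, was lower after gonadotropin, and Scd2, a stearoyl-CoA desaturase that makes monounsaturated fatty acids, was higher. The other 14 tested members did not pass the adjusted threshold of 0.05 (edgeR quasi-likelihood test, Benjamini-Hochberg over 7628 genes). The call rate over all tested genes was 0.695% for lower and 0.577% for higher levels and 1 tested member was called in each direction. Of the 16, 13 had a negative log2 fold change, with a median of −0.32 (all tested genes: 50.5% negative, median −0.00335). At an unadjusted p under 0.05 stood 9 of the 16, 7 of them negative, beside 14.2% of all tested genes. Since the members were chosen with earlier results of these data known, these counts describe the set and were not tested. The mice of the groups overlapped for every tested member (0 of 16 without overlap, beside 2.61% of all genes). The 13 members left out had 23 to 111 UMIs over all 10 mice and were not tested in this type. Replicates here are mice that shared a library, so p-values rest on the spread between mice within these libraries. The edgeR fit draws the spread of each gene toward that of other genes. Its SE and p can therefore be smaller than the spread of that gene's own mice would give.

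Among the mevalonate and isoprenoid genes, Idi1, the isopentenyl diphosphate isomerase, stood at 11.7, 18.0, 18.4, 16.3 and 14.6 CPM in gonadotropin mice 1 to 5. In untreated mice 1 to 5 it stood at 14.5, 37.8, 37.5, 8.88 and 19.7 CPM. Untreated mice 2 and 3 were above every gonadotropin mouse and untreated mouse 4 was below every one of them. The log2 fold change was −0.70 ± 0.27 (SE, n = 5 mice per group, edgeR adjusted p = 0.212). Without untreated mouse 2 it was −0.39 (adjusted p = 0.598).

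Fdps, the farnesyl diphosphate synthase that feeds both sterols and protein prenylation, stood at 18.0, 13.5, 27.7, 14.0 and 20.5 CPM after gonadotropin. The untreated mice stood at 23.2, 33.8, 37.5, 6.66 and 25.5 CPM. Untreated mouse 4 was again the lowest of all 10, and the other 4 untreated mice lay above 4 of the 5 gonadotropin mice. The log2 fold change was −0.64 ± 0.25 (edgeR adjusted p = 0.203). Without untreated mouse 4 it was −0.76 (adjusted p = 0.04996), and with types taken from clusters it was −0.94 (adjusted p = 0.0442).

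Pmvk, the phosphomevalonate kinase, averaged 19.2 ± 4.47 CPM after gonadotropin and 28.5 ± 6.50 CPM in untreated mice (SD, n = 5 each). Its log2 fold change was −0.56 ± 0.20 (edgeR adjusted p = 0.16). Hmgcs1, the HMG-CoA synthase whose promoter is printed above, gave −0.36 ± 0.28 (adjusted p = 0.607), with untreated mice spread from 13.3 to 63.0 CPM. Ggps1, which makes geranylgeranyl diphosphate for protein prenylation, was the only tested gene of this step with a positive value, 0.12 ± 0.12 (adjusted p = 0.716). Acat2, Mvk and Mvd had 52 to 111 UMIs and were not tested.

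Of the 11 sterol step genes, 4 had enough counts to be tested and all 4 had negative values. The means of the untested genes went both ways and are given below. Cyp51 stood at 24.3, 55.4, 34.6, 36.1 and 39.5 CPM in gonadotropin mice 1 to 5. In untreated mice 1 to 5 it stood at 69.5, 90.2, 69.8, 24.4 and 95.5 CPM. The untreated mice other than mouse 4 were above every gonadotropin mouse, and mouse 4 was level with the lowest of them. The group means were 38.0 ± 11.3 and 69.9 ± 28.0 CPM (SD, n = 5 each), and the log2 fold change was −1.10 ± 0.20 (SE, edgeR adjusted p = 0.0015). Untreated mouse 4 gave 81 follicular B cells and 11 Cyp51 UMIs, and the fitted fold change weights each mouse by its depth. It was not the shallowest mouse, as gonadotropin mouse 3 gave 73 cells (433886 UMIs of all genes against 450403). Leaving out each mouse in turn kept Cyp51 past the threshold in all 10 fits, with log2 fold changes of −1.25 to −0.94 (adjusted p = 4.54e-06 to 0.0278). DESeq2 gave −0.93 ± 0.35 (SE), a wider SE than that of edgeR, and no adjusted p for this gene. Its unadjusted p was 0.00779, where the edgeR quasi-likelihood test gave 4.72e-06.

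Cyp51 UMIs were found in 13.5% of 784 gonadotropin cells and 21.6% of 834 untreated cells, pooled over the mice of a group. With each cell thinned to 2000 UMIs the shares were 5.96% of 772 cells and 9.72% of 823 cells. In NK cells, where its level was lowest, the thinned shares were 1.43% and 2.94%. These shares count cells with a UMI and were not tested over mice.

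Ebp, the sterol isomerase, averaged 25.8 ± 8.82 CPM after gonadotropin and 37.7 ± 4.31 CPM in untreated mice, a log2 fold change of −0.44 ± 0.18 (edgeR adjusted p = 0.235). Sc5d, the sterol desaturase, gave −0.53 ± 0.28 (adjusted p = 0.404), and gonadotropin mice ranged from 2.99 to 23.4 CPM. Msmo1, the methylsterol monooxygenase that acts after Cyp51, gave −0.28 ± 0.26 (adjusted p = 0.674). The remaining 7 genes, Fdft1, Sqle, Lss, Tm7sf2, Nsdhl, Hsd17b7 and Dhcr7, had 23 to 108 UMIs and were not tested. Sqle, the squalene epoxidase, gave 83 UMIs in all, at 6.45 ± 3.37 CPM after gonadotropin and 9.72 ± 4.58 CPM in untreated mice. Dhcr7, which makes the last reduction to cholesterol, gave 54 UMIs, at 7.38 ± 2.82 and 3.96 ± 1.21 CPM. Fdft1, Nsdhl and Tm7sf2 also had higher means after gonadotropin (11.6, 11.5 and 2.74 against 9.35, 9.14 and 1.98 CPM). Hsd17b7 and Lss averaged 8.06 and 3.17 CPM after gonadotropin against 9.44 and 3.2 CPM.

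**Figure D1:**
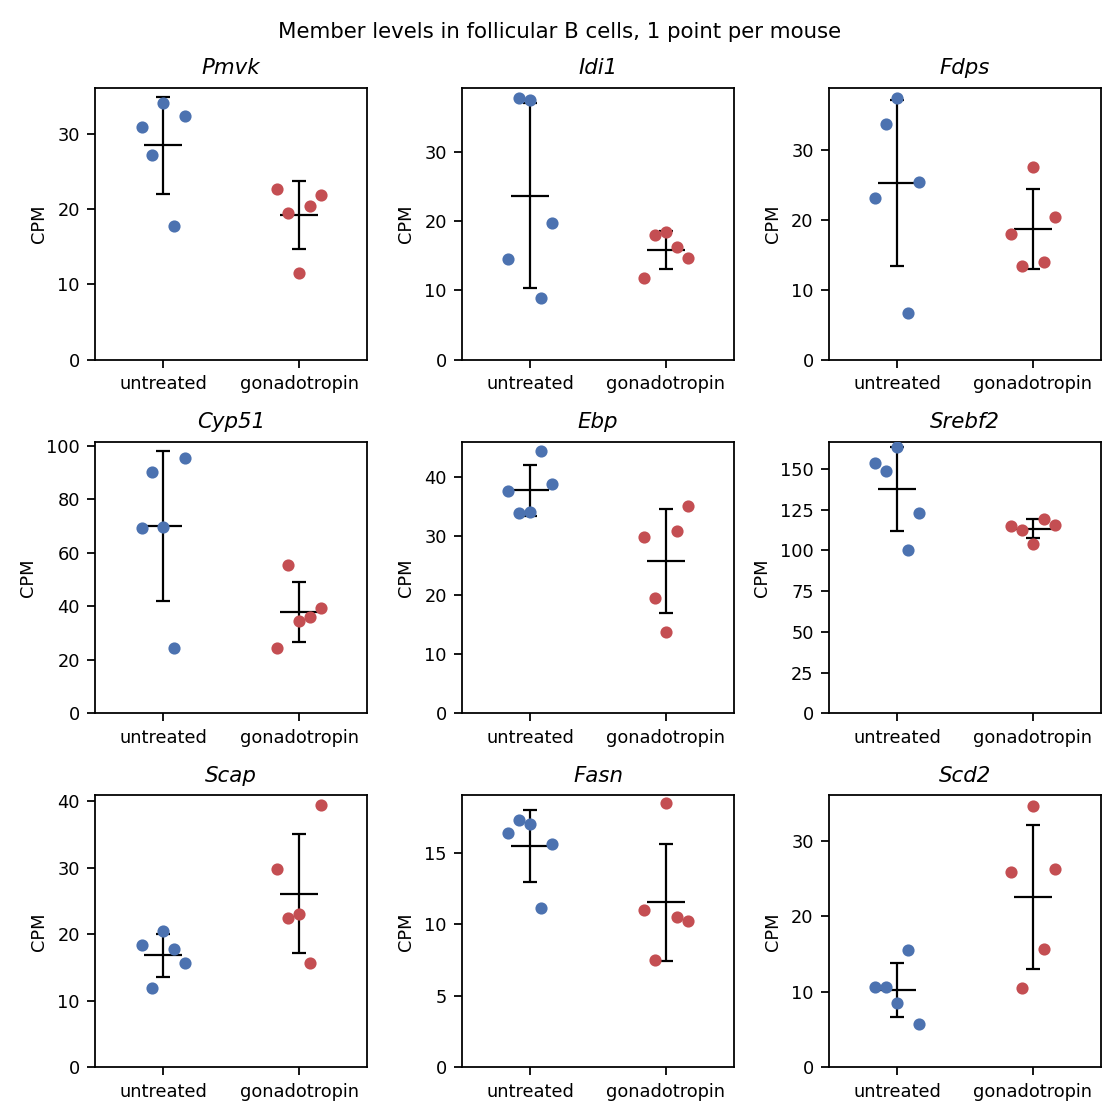
Levels of the 9 members with an unadjusted p under 0.05 in follicular B cells, in CPM on linear axes that start at 0. Each point is 1 mouse (5 untreated, 5 gonadotropin), and the bar and whiskers are the mean ± SD. For Cyp51 the untreated mice other than the one at 24.4 lie above every gonadotropin mouse, and for Scd2 the gonadotropin mice reach 34.6 against 15.5 at most in untreated mice.

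Of the regulators, Srebf2 stood at 115, 112, 104, 119 and 115 CPM in gonadotropin mice 1 to 5. In untreated mice 1 to 5 it stood at 153, 149, 163, 99.9 and 123 CPM. The gonadotropin mice lay close together, and untreated mouse 4 was again the lowest. The log2 fold change was −0.29 ± 0.10 (SE, n = 5 per group, edgeR adjusted p = 0.169). Scap, the escort of the SREBP factors, averaged 26.1 ± 8.98 CPM after gonadotropin and 16.8 ± 3.22 CPM in untreated mice, a log2 fold change of 0.62 ± 0.24 (adjusted p = 0.211). Insig1, which retains Scap, gave −0.21 ± 0.28 (adjusted p = 0.803) and Stard4, a sterol transfer protein, gave −0.10 ± 0.29 (adjusted p = 0.919). Srebf1 had 93 UMIs and was not tested.

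Among the fatty acid genes, Scd2 stood at 25.8, 10.5, 34.6, 15.7 and 26.3 CPM in gonadotropin mice 1 to 5. In untreated mice 1 to 5 it stood at 10.6, 10.6, 8.51, 15.5 and 5.79 CPM. Gonadotropin mice 1, 3 and 5 were above every untreated mouse, mouse 4 was level with the highest untreated mouse, and mouse 2 lay among the untreated mice. The means were 22.6 ± 9.51 and 10.2 ± 3.58 CPM, and the log2 fold change was 1.16 ± 0.29 (SE, edgeR adjusted p = 0.0375), from 149 UMIs in all. This call was lost in 7 of the 10 fits that left out 1 mouse: gonadotropin 1, 3 or 5, or untreated 1, 2, 3 or 5. Over the 10 fits the log2 fold change lay between 0.94 and 1.33 (adjusted p = 0.012 to 0.189). With types from clusters it was 0.89 (adjusted p = 0.154), and DESeq2 gave 1.18 with an unadjusted p of 0.000775 and no adjusted p. Scd1, its more abundant paralog, averaged 189 ± 13.9 and 199 ± 42.6 CPM and gave −0.06 ± 0.10 (adjusted p = 0.84), and how reads common to both genes were assigned is not given in the sources used here.

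Fasn, the fatty acid synthase, averaged 11.5 ± 4.10 CPM after gonadotropin and 15.5 ± 2.53 CPM in untreated mice, a log2 fold change of −0.56 ± 0.25 (edgeR adjusted p = 0.303). Acly, which makes the cytosolic acetyl-CoA both pathways start from, gave −0.01 ± 0.15 (adjusted p = 0.99). Elovl6, a fatty acid elongase, and Lpin1, a phosphatidate phosphatase, had 68 and 59 UMIs and were not tested.

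Untreated mouse 4 was the lowest of its group for 9 of the 16 tested members in follicular B cells, and untreated mouse 3 the highest for 7. Without untreated mouse 4 the count of members past the threshold was 3 (Cyp51, Fdps and Scd2) and that of all genes was 222 against 97. Summed over the 19 mevalonate and sterol step genes, follicular B cells gave 291 to 361 CPM in gonadotropin mice (median 329) and 311 to 482 CPM in untreated mice (median 409). The ranges overlapped at their ends. Summed over all 29 members they gave 558 to 634 CPM and 533 to 787 CPM.

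**Figure D2:**
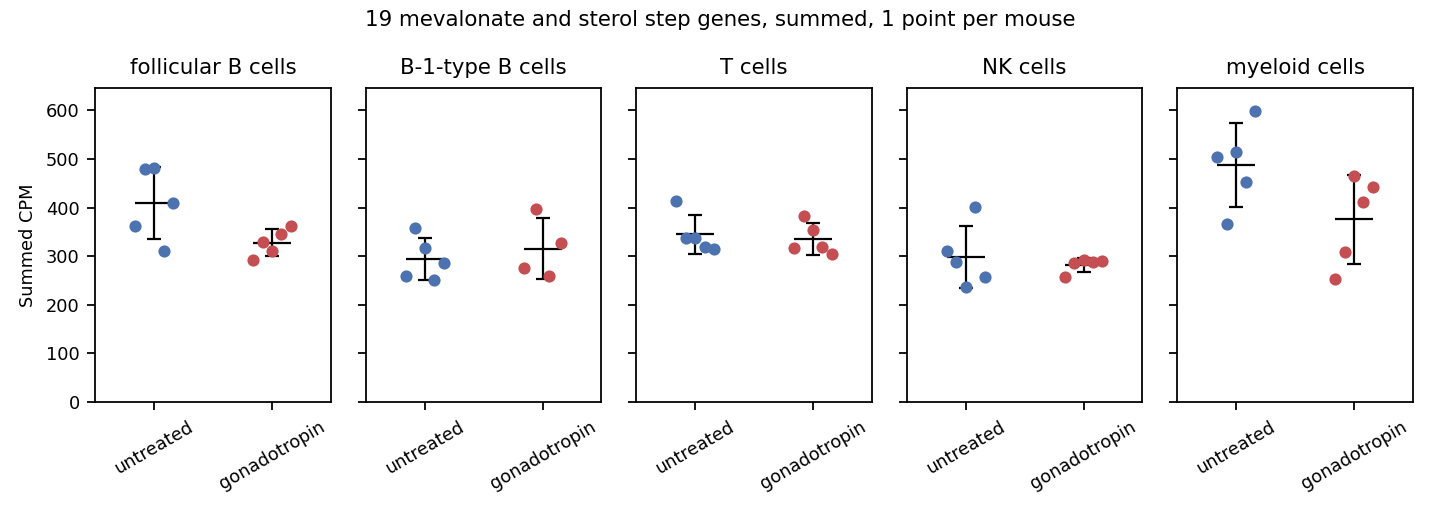
Summed level of the 19 mevalonate and sterol step genes in each of the 5 cell types, in CPM on a linear axis from 0. Each point is 1 mouse, and the bar and whiskers are the mean ± SD over 5 mice (4 in the gonadotropin group of B-1-type B cells). The groups overlap in every type, with medians of 329 and 409 in follicular B cells and of 411 and 505 in myeloid cells for gonadotropin and untreated mice.

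None of the members tested in the other 4 types passed the threshold in the edgeR quasi-likelihood tests. The numbers tested were 15 in B-1-type B cells, 21 in T cells, 5 in NK cells and 12 in myeloid cells. The call rate over all genes was 0.326%, 0.629%, 0.0199% and 0.0845% in that order. At an unadjusted p under 0.05 stood 0, 1, 0 and 4 of them, beside 8.66%, 12.4%, 6.35% and 7.03% of all genes. DESeq2 called 0 of the 5, 5 and 9 members to which it gave an adjusted p in B-1-type B, NK and myeloid cells, and gave none to the 21 members in T cells.

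In myeloid cells, 9 of the 12 tested members had negative values, with a median log2 fold change of −0.29 (all genes −0.00372). This gate pools neutrophils, monocytes, macrophages and dendritic cells, and their mix in each mouse was not tested. Median UMIs per myeloid cell ranged from 5542.5 in gonadotropin mouse 1 to 12475 in untreated mouse 5. Idi1 gave −0.93 ± 0.36, Cyp51 −0.85 ± 0.36, Hmgcs1 −0.80 ± 0.28 and Msmo1 −0.66 ± 0.23 (edgeR adjusted p = 0.632, 0.67, 0.553 and 0.553). Without untreated mouse 5 the value of Idi1 was −0.52 (adjusted p = 0.862). Hmgcs1 stood at 24.3, 21.1, 33.0, 32.0 and 27.8 CPM in gonadotropin mice and at 49.1, 26.3, 33.0, 75.9 and 55.8 CPM in untreated mice 1 to 5. Untreated mice 1, 4 and 5 were above every gonadotropin mouse, untreated mouse 3 was level with the highest of them, and mouse 2 lay among them. Gonadotropin mice 1 and 2 held the lowest value of their group for 7 and 4 of the 12 members. Of the measures that moved with the groups in myeloid cells, the early response genes were negative in 6 of 6 tested (5 at an unadjusted p under 0.05, none past the edgeR threshold). They summed to 1278 to 1729 CPM after gonadotropin and 1849 to 2693 CPM in untreated mice. The hemoglobin gene Hbb-bs was higher, by 2.17 ± 0.37 on the log2 scale (adjusted p = 0.0443). Their part in the member values was not tested. Acly had the largest positive value among the members, 0.52 ± 0.33 (adjusted p = 0.783), with gonadotropin mice spread from 39.8 to 208 CPM.

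In T cells, all 6 tested mevalonate and isoprenoid genes had negative values, with a median of −0.35. Hmgcs1 was the one with an unadjusted p under 0.05, at −0.44 ± 0.19 (edgeR adjusted p = 0.346), from 19.6 ± 2.44 CPM after gonadotropin and 25.6 ± 4.45 CPM in untreated mice. Without untreated mouse 1 it was −0.29 (adjusted p = 0.66). In the same T cells 4 of 5 cell cycle genes were negative (median −1.24, 3 at an unadjusted p under 0.05, none past the edgeR threshold), and their sums ranged over 123 to 326 CPM and 125 to 590 CPM. Of the early response genes, 6 of 8 were negative and 2 passed, Fos at −0.74 ± 0.17 and Junb at −0.78 ± 0.10 (adjusted p = 0.0422 and 0.000109). Hbb-bs was higher by 3.18 ± 0.33 (adjusted p = 2.16e-05), and mitochondrial UMIs made up 1.98% to 2.07% after gonadotropin and 2.09% to 2.36% in untreated mice. The part of these differences in the member values was not tested. The 5 tested sterol step genes of T cells had a median of 0.13, and Cyp51 gave −0.25 ± 0.28 (adjusted p = 0.787). In B-1-type B cells, 5 of the 15 tested members had negative values and the median was 0.10. Cyp51 there ranged from 24.7 to 90.9 CPM in the 4 gonadotropin mice and from 29.2 to 95.8 CPM in the 5 untreated mice. Scd2 in B-1-type B cells stood at 27.0 ± 10.3 and 28.3 ± 7.32 CPM, a log2 fold change of −0.03 ± 0.28 (adjusted p = 1). In NK cells the 5 tested members lay between −0.27 (Acly) and 0.33 (Elovl6).

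**Figure D3:**
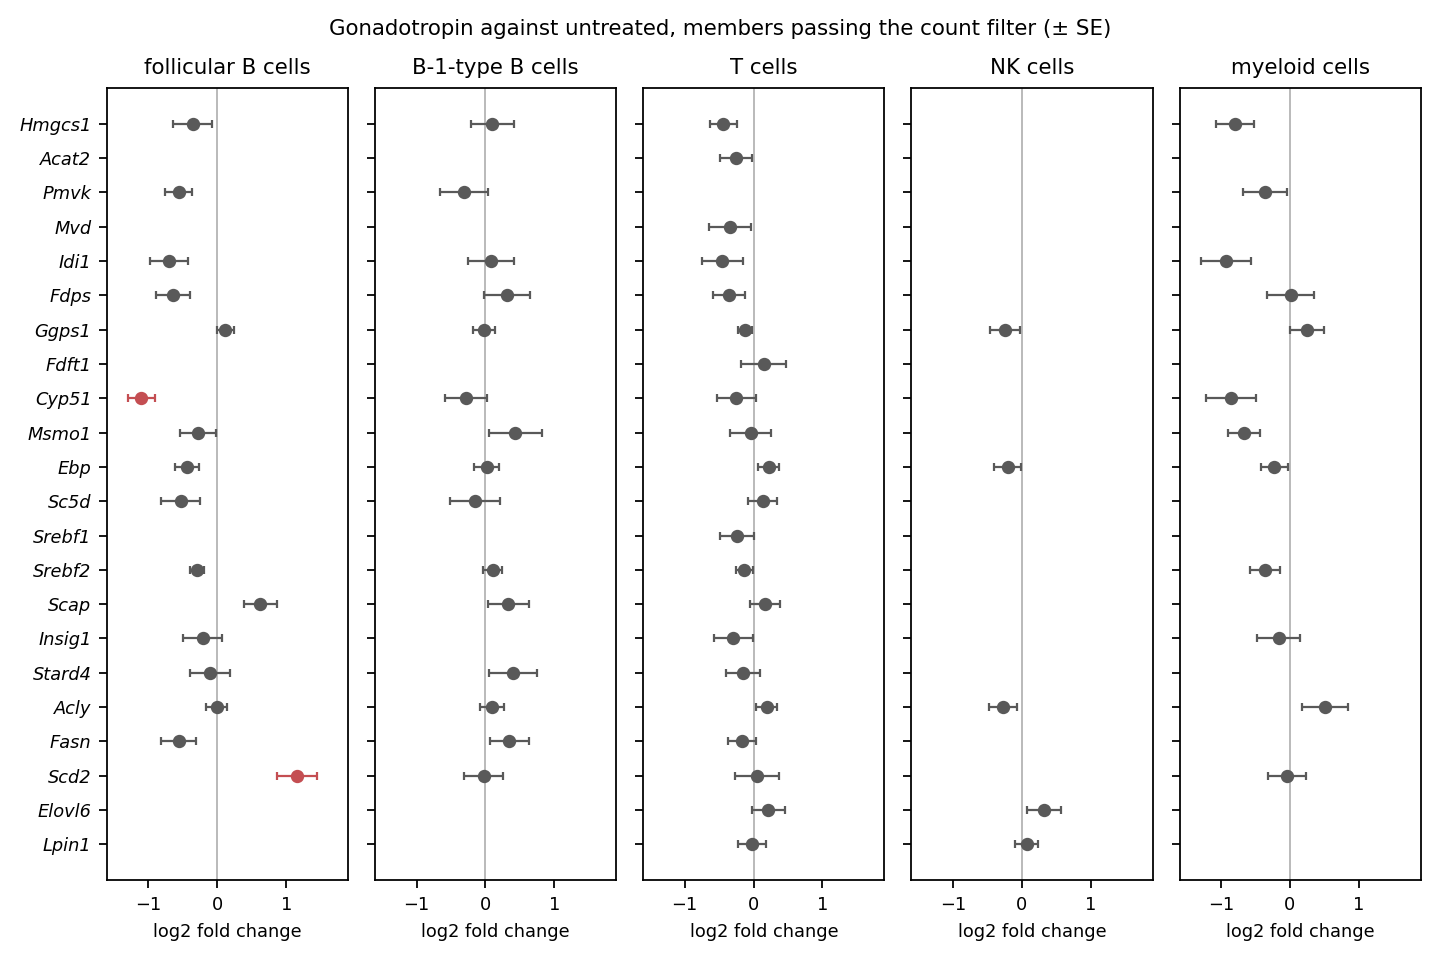
Log2 fold change of gonadotropin against untreated mice (x axis, ± SE) for the 22 members tested in at least 1 of the 5 cell types, 1 panel per type. Red points passed an adjusted p of 0.05 (Cyp51 at −1.10 and Scd2 at 1.16 in follicular B cells), grey points did not, and members without a point had too few counts.

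The difference of the gonadotropin effect between types was tested directly, with the mouse as a term and follicular B cells as the reference. No member passed in any of the 4 pairs by the edgeR quasi-likelihood test. Over all genes the call rate was 0% against B-1-type B, 0.0333% against T, 0.0133% against NK and 0.0491% against myeloid cells. The members at an unadjusted p under 0.05 numbered 5 of 21, 3 of 24, 2 of 15 and 1 of 16 in these pairs, beside 4.87%, 6.38%, 4.83% and 6.32% of all genes. Scd2 was among them in all 4, with differences from the follicular B effect of −0.99 ± 0.36, −0.99 ± 0.40, −1.29 ± 0.45 and −1.19 ± 0.45 on the log2 scale (adjusted p = 0.834, 0.636, 0.836 and 0.704). The 4 differences share the follicular B values. For Cyp51 the difference against T cells was 0.80 ± 0.32 (adjusted p = 0.629). The effects on Cyp51 and Scd2 are therefore not shown to differ between follicular B and other cells. On simulated counts, the test of this difference against T cells called 47.5% of 2-fold differences, so a missing call does not show equal effects.

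Levels were also compared between cell types within the same mice. Lpin1 and Elovl6 were highest in NK cells. Lpin1 ranged from 91.9 to 137 CPM over the 10 mice in NK cells and from 2.92 to 17.8 CPM in follicular B cells. The log2 difference was 4.05 ± 0.18 (SE, 10 mice, edgeR adjusted p = 2.54e-20). T cells lay between them at 13.5 to 27.7 CPM, 1.99 ± 0.22 above follicular B cells. Elovl6 stood at 81.4 ± 31.3 CPM in NK cells, 31.4 ± 10.6 CPM in T cells and 6.88 ± 3.79 CPM in follicular B cells (SD over 10 mice). Its log2 differences from follicular B cells were 3.32 ± 0.21 and 2.26 ± 0.21. Its levels in myeloid cells, 11.3 ± 6.34 CPM, and in B-1-type B cells, 4.29 ± 5.15 CPM over 9 mice, overlapped with those of follicular B cells.

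Cyp51 and Srebf2 had the opposite order. Cyp51 stood at 53.9 ± 26.2 CPM in follicular B cells, 53.4 ± 25.5 CPM in B-1-type B cells and 49.7 ± 28.4 CPM in myeloid cells, which did not differ beyond their spread. It was lower in T cells, at 19.4 ± 7.10 CPM (log2 −1.48 ± 0.16), and in NK cells, at 10.7 ± 6.97 CPM (−2.46 ± 0.23). Srebf2 stood at 125 ± 21.9 CPM in follicular B cells and 32.5 ± 15.9 CPM in NK cells (−2.20 ± 0.15), with T and myeloid cells between them at 71.5 ± 8.14 and 70.1 ± 20.2 CPM. Pmvk was also lower in NK cells (−1.95 ± 0.29) and T cells (−1.43 ± 0.18).

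Myeloid cells were higher than follicular B cells for 10 of 16 tested members and lower for 3, where 36.3% and 34.2% of all genes were called. Msmo1 (1.30 ± 0.18), Acly (1.24 ± 0.15), Insig1 (1.17 ± 0.21), Ebp (1.03 ± 0.15), Fdps (1.01 ± 0.21) and Idi1 (0.98 ± 0.23) were among those higher. Ggps1 (−1.25 ± 0.13), Srebf2 (−0.77 ± 0.13) and Scap (−0.59 ± 0.22) were lower. T cells were higher for 8 of 24 members and lower for 4 (all genes 28.5% and 26.3%). NK cells were higher for 5 of 15 and lower for 7 (all genes 28.9% and 28.6%). B-1-type B cells were higher for 4 of 21 and lower for 5 (all genes 22.5% and 21.2%), led by Scd2 at 1.22 ± 0.19 and Hsd17b7 at −1.16 ± 0.35. In T and B-1-type B cells the members' shares lay near those of all genes. Ebp was higher in all 4 types than in follicular B cells, by 0.67 ± 0.13 in B-1-type B, 0.48 ± 0.13 in T, 0.95 ± 0.14 in NK and 1.03 ± 0.15 in myeloid cells.

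**Figure D4:**
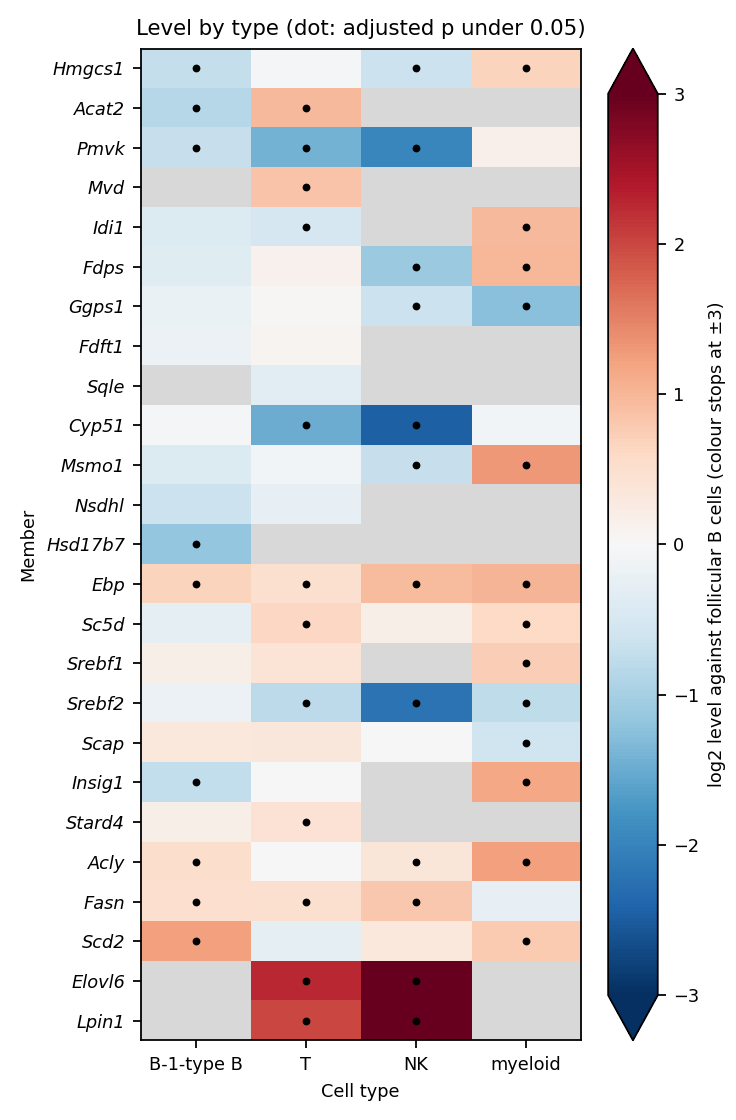
Log2 level of each member against follicular B cells in the same mice (colour, stopping at −3 and 3), for the 4 other cell types. Grey cells were not tested and black dots mark an adjusted p under 0.05. Elovl6 and Lpin1 stand out in the NK column, at 3.32 and 4.05.

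Types differ in depth, with a median of 14287 UMIs per gonadotropin cell in B-1-type B cells and 6765 in NK cells, so levels were also computed after thinning each cell to 2000 UMIs. Far fewer members could then be tested, 5 in each of B-1-type B, T and myeloid cells and 6 in NK cells, and those called numbered 0, 2, 4 and 5. Of the members called at full depth, the 2, 3, 4 and 6 still tested kept their sign. In NK cells Lpin1 gave 3.77 and Elovl6 3.36, and Srebf2 gave −2.59. In T cells Cyp51 gave −1.36. Ebp, higher in all 4 types at full depth, was among the members called after thinning in NK and myeloid cells only.

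The wider pathway was read from 39 further sterol and fatty acid genes, which include efflux pumps, desaturases and the SREBP proteases. In follicular B cells 26 were tested, 13 with positive and 13 with negative values, and none passed (edgeR), with 4 at an unadjusted p under 0.05, all positive. Over all tested genes 14.2% stood at that p, so the count lay near the background. Abcg1, a sterol efflux pump, gave 0.61 ± 0.18 (adjusted p = 0.0805). Mylip, a ubiquitin ligase induced by sterol-activated receptors, gave 0.39 ± 0.12 (adjusted p = 0.0873), and Npc1, which exports lysosomal cholesterol, gave 0.71 ± 0.22 (adjusted p = 0.0941). In the other types 24, 21, 13 and 20 of the 39 were tested (B-1-type B, T, NK, myeloid). None passed there either, with 2, 2, 1 and 2 at an unadjusted p under 0.05.

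Other measures moved with the groups in follicular B cells. The immediate early genes Fos and Junb fell by 1.28 and 1.02 on the log2 scale, and the growth regulator Irs2 fell by 0.97 (edgeR adjusted p = 7.56e-09, 1.41e-08 and 0.0012). The 8 early response genes summed to 576 to 652 CPM in gonadotropin mice and 848 to 1049 CPM in untreated mice, 6 of the 7 tested being negative and 4 of them called. Red cell RNA was higher after gonadotropin, with 4 hemoglobin genes at 27.7 to 64.6 CPM against 4.63 to 8.51 CPM, after cells over 1% hemoglobin had been left out. The 5 genes of a myeloid list (Lyz2, S100a8, S100a9, Apoe and C1qa) summed to 184 to 288 CPM and 92.0 to 214 CPM. Most of this was Apoe, at 141 to 248 CPM and 73.2 to 196 CPM. Apoe was lower in T cells than in follicular B cells (log2 −3.70 ± 0.11), and whether it was free RNA was not tested. Both genes of that list that were tested had positive values, and Lyz2, a myeloid lysozyme, passed, at 33.5 ± 4.53 and 13.8 ± 3.57 CPM (log2 1.26 ± 0.21, adjusted p = 0.000524). Mitochondrial UMIs made up 1.95% to 2.12% after gonadotropin and 2.18% to 2.29% in untreated mice, with no overlap. Steroid-making and follicle cell markers (10 genes, 4 of them at 0) summed to 2.99 to 14.6 CPM and 1.70 to 6.66 CPM, and none had enough counts to test. The 5 cell cycle genes summed to 85.3 to 104 CPM and 84.4 to 101 CPM. The part of these differences in the member values was not tested.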

How the data were processed

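Raw UMI counts per gene and cell barcode, deposited by the authors for 2 pooled libraries, and the authors' deposited table of hashtag calls were used. Per the submitters' processing notes, bcl2fastq, Cell Ranger, Seurat and the mm10 build were used; versions are not given in the sources used here. Per the labels' protocols, libraries came from the 10x 3′ platform.

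Barcodes called for 1 hashtag were kept if they held 500 genes or more and if mitochondrial UMIs stayed below 10%; 1348 doublets, 89 barcodes without a hashtag and 22 cells over 1% hemoglobin (all gonadotropin) were left out of the types. The hemoglobin limit was set after seeing the data. Types were gated on marker genes (4 of 7 for B, 4 of 8 for T, 5 of 9 for NK, 5 of 14 for myeloid cells). B cells were split by the share of B-1 markers among B-1 and follicular marker UMIs (below 0.4 follicular, from 0.6 B-1-type); 168 cells lay between and 210 were ungated. Mice with under 20 cells of a type were left out, which removed gonadotropin mouse 1 from B-1-type B cells.

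Counts were summed per mouse and type and tested with edgeR 4.0.16 (TMM, filterByExpr, quasi-likelihood test, Benjamini-Hochberg over all genes tested, threshold 0.05) in R 4.3.3. Type comparisons had the mouse as a term. DESeq2 1.42.0 and clusters from scanpy 1.11.5 were alternatives. On simulated follicular B counts of 7604 genes, 85.9% of 2-fold and 30% of 1.5-fold changes were called. For NK cells (5031 genes) the shares were 72.4% and 17.7%. The simulation gave every gene the same spread between mice and changed only genes above a floor in mean counts. Tested members below that floor, such as Fasn in follicular B cells (137 UMIs), or with a wider spread are not covered by these rates. The members and lists were chosen with earlier results of these data known. Named genes are the members, the fixed lists and the 5 genes most like the members' sum. Sequences come from RefSeq windows of GRCm38.p6; 5 members had no window and none is printed for them. Some genes of the further pathway list are not reported here by name.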

Additional observations from a re-analysis of the deposited data

Results flagged for a closer look

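Among 42 groups of mice examined for members described above and for the members' sum, 3 held a mouse far from the others of its group; chance alone flags about 1 in 20 such groups. Fasn in follicular B cells stood at 11.1 CPM in untreated mouse 4, below the next untreated mouse at 15.6 CPM. Elovl6 in NK cells stood at 150.0 CPM in untreated mouse 1, where the next stood at 68.8 CPM. The 29 members summed to 697 CPM in T cells of untreated mouse 1, where the next stood at 600 CPM.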

How the results depend on the processing

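Cyp51 in follicular B cells kept its direction and its call under each edgeR alternative run. DESeq2 kept its direction with a larger unadjusted p (0.00779 against 4.72e-06 by edgeR) and gave no adjusted p to read a call from. Scd2 kept its direction in all the edgeR alternatives. It lost its call with types from clusters and in 7 of 10 fits without 1 mouse. No member with an unadjusted p under 0.05 for the gonadotropin effect changed sign where it was fitted. Medians over the tested members did change sign. In B-1-type B cells the median was −0.0046 without gonadotropin mouse 3, with 8 of 15 members negative. In T cells it was −0.14 in the main fit (14 of 21 negative) and 0.053 without untreated mouse 1 (9 of 19 negative). Without 1 mouse each, members called in follicular B cells numbered 1 to 3, and genes called numbered 47 to 222 in follicular B, 10 to 37 in B-1-type B, 22 to 121 in T, 1 to 3 in NK and 0 to 7 in myeloid cells. The lowest count in follicular B, B-1-type B and T cells came without gonadotropin mouse 4, and the highest in follicular B and T cells without untreated mouse 4. No member was called in the other 4 types in any of these fits. With no filter on low counts, genes called were 199, 80, 272, 41 and 39 (follicular B, B-1-type B, T, NK, myeloid). DESeq2 called 100 genes in T, 4 in NK and 28 in myeloid cells, and clusters gave 125, 4 and 0; edgeR had called 51, 1 and 5. DESeq2 gave no adjusted p to 15 of 16 members in follicular B, 10 of 15 in B-1-type B, 21 of 21 in T and 3 of 12 in myeloid cells, so no count of lost member calls is given for it. Keeping cells over 1% hemoglobin, chosen after seeing the data, left 2 members called in follicular B cells. Thinned to 2000 UMIs, level calls fell from 3730, 4940, 4320 and 5752 genes to 1312, 2468, 2342 and 2734 (B-1-type B, T, NK, myeloid) and from 9, 12, 12 and 13 members to 0, 2, 5 and 4, with fewer genes passing the filter. No paired analysis was possible because each mouse belongs to 1 group and the mouse numbers only name hashtags; type comparisons had the mouse as a term. The filter on low counts decides which members can be read, and 7 members were tested in no type.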

Other observations

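Over the 10 mice, the genes whose follicular B levels ranked most like the members' summed CPM were Ppp1r14b (Spearman's rho 0.952), Anp32b (0.939), Pgam1 (0.939), Cox7c (0.927) and Ran (0.915). They were picked as the highest of 4653 genes, so these values describe the ranking only, and they share the mice, the libraries and the group means with the members. Ran, a nuclear transport GTPase, averaged 150 CPM after gonadotropin and 171 CPM in untreated mice, and Pgam1, a glycolytic enzyme, averaged 44.5 and 53.2 CPM.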
